A study of Homo sapiens with 4 samples.

Results

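The 35 genes described here make cholesterol and fatty acids or set how much of them a cell makes, takes up and exports. They were listed as genes of the pathway, at a time when earlier results of these data were known, and taken by gene symbol. All 35 were found among the 58233 genes of the count table. They fall into sterol synthesis (18 genes), uptake and feedback (7 genes), efflux (2 genes) and fatty acid synthesis (8 genes). mRNA was sequenced from MIA PaCa-2 and PANC-1, established human pancreatic cancer cell lines labelled wild type, collected 24 h after treatment with cannabichromene (CBC), a cannabinoid of the cannabis plant, or with PBS. CBC was dissolved in acetonitrile, and the control is PBS in the labels but a vehicle control in the methods, so an effect of the solvent cannot be told apart from that of CBC if the control held none. The dose was 35 µM in MIA PaCa-2 and 30 µM in PANC-1, so the lines differ in dose as well as in cell type. Each line and treatment gave 1 library, 4 in all, and no difference within a line therefore has a replicate check.

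The 4 libraries held 21742775 to 27903667 counts on genes, and 3 counts, the limit that a count of 0 allows, equalled 0.11 to 0.135 CPM (counts per 1000000, on library sizes scaled by TMM, the trimmed mean of M-values). The keratin genes KRT8, KRT18 and KRT19 and the mesenchymal gene VIM were read in all 4 libraries, with VIM at 75118 to 119039 counts. EPCAM, another epithelial marker, had 0 and 1 counts in the MIA PaCa-2 libraries and 264 and 250 counts in the PANC-1 libraries. The immune marker PTPRC, the endothelial marker PECAM1 and the acinar marker CPA1 had 0 counts in all 4 libraries. Of the other 3 markers, CELA2A had at most 1 count, while CDH5 went from 49 to 7 counts and COL3A1 from 61 to 2 counts in MIA PaCa-2. Mitochondrially encoded genes took 5.81% of the counts in the MIA PaCa-2 control and 3.86% after CBC, and 4.63% and 2.42% in PANC-1. The part of these shifts in the results below was not tested.

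Cells build cholesterol from acetyl-CoA through mevalonate, isoprenoid units, squalene and lanosterol, and they build fatty acids from the same acetyl-CoA through malonyl-CoA. Both pathways are driven by the sterol regulatory element-binding proteins (SREBPs), membrane-bound transcription factors that SCAP carries from the endoplasmic reticulum to the Golgi for cleavage when sterols are scarce and that the INSIG proteins hold back when sterols are plentiful. The liver X receptors (LXRs), which sense oxidized sterols, switch on export through the ABC transporters and also transcription of SREBF1. Pancreatic cancer cells are known for active lipid synthesis.

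After CBC treatment, no gene of the 35 was more than 2-fold higher in either line, and the genes that passed 2-fold were all lower. In MIA PaCa-2, 7 of the 34 genes tested (20.6%) were past a log2 fold change of -1, where 8.97% of all 14001 genes tested were. In PANC-1, 8 of 34 (23.5%) were past it, where 7.03% of all 14091 genes tested were. In the other direction, 0 of 34 genes compare with 11.5% of all genes in MIA PaCa-2 and 7.71% in PANC-1. Genes below 1 CPM in both libraries of a line were left out of that line. This applied to STARD4 in MIA PaCa-2 and to ABCG1 in PANC-1. In bulk RNA, fewer cells of a kind and less RNA per cell cannot be told apart, and CPM values are shares of the mRNA of a library, not amounts per cell. The paper chose the doses from its viability assays. It reports more apoptotic cells after CBC than in the control of both lines, with the larger share in MIA PaCa-2. The part of cell death in the differences given here, within a line or between the lines, was not tested.

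Most genes of the 35 moved by less than 2-fold. The median log2 fold change was -0.47 in MIA PaCa-2 and -0.37 in PANC-1, beside medians of -0.01 and 0.02 over all genes tested. Values below 0 were found for 23 of 34 genes in MIA PaCa-2 (67.6%, beside 50.9% of all genes) and for 24 of 34 in PANC-1 (70.6%, beside 48.6%). Of the 33 genes tested in both lines, 19 were below 0 in both (57.6%, beside 35.1% of 12502 genes), and 7 were above 0 in both. ACAT2, HSD17B7 and SCD were lower by more than 2-fold in both lines (9.09% of the 33 genes, beside 2.98% of all genes tested in both). The exact binomial 95% interval of the count ratio, which covers counting error only, lay below 0 on the log2 scale for 21 genes in each line. It lay above 0 for 5 genes in MIA PaCa-2 and 7 in PANC-1, and held 0 for the other 8 and 6. These counts by interval were not made over all genes.

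The 2 lines are the only replication in the design. When CBC was tested against PBS over all 4 libraries with the cell line as a block (edgeR's quasi-likelihood test, Benjamini-Hochberg adjustment over 16381 genes), 5 of the 35 genes were lower at an adjusted p under 0.05 and 0 were higher, beside 2.45% and 2.26% of all genes tested. These 5 genes (14.3%) were SCD, FASN and ACACA of fatty acid synthesis and ACAT2 and HSD17B7 of sterol synthesis. At an unadjusted p under 0.05 there were 16 of the 35, beside 3428 of the 16381 genes. Among the 16 were ABCG1 (3 and 2 counts in PANC-1) and STARD4 (0 counts in MIA PaCa-2), whose values rest mainly on 1 line. The test has 1 residual degree of freedom and borrows its estimate of the spread from all genes. Without the block, edgeR called 0 of the 35 genes and 0 of all genes (2 and 354 at an unadjusted p under 0.05). DESeq2 with the block called the same 5 genes and ACLY, beside 1296 of all 16381 genes.

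**Figure D1:**
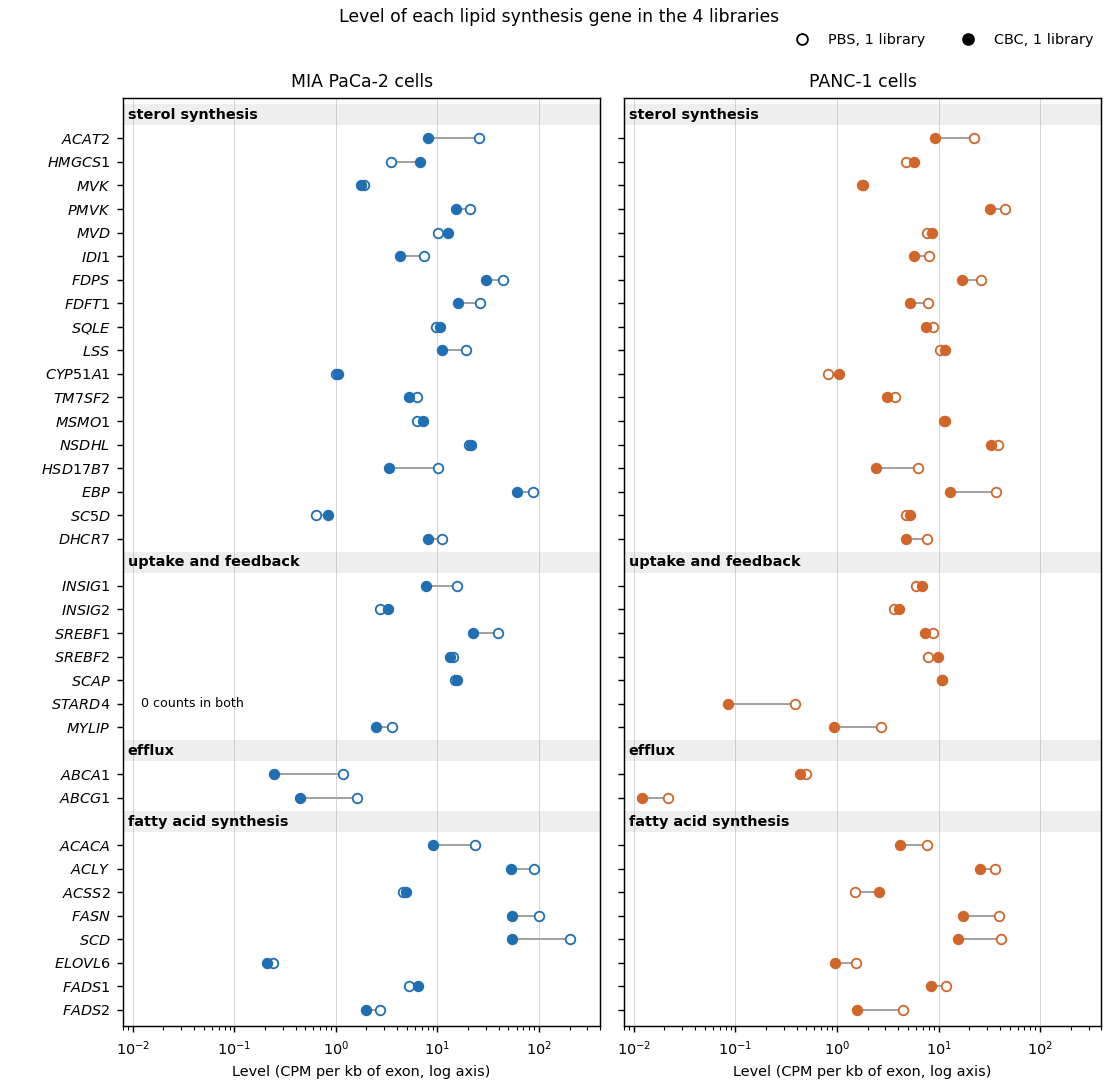
Level of each of the 35 genes in CPM per kb of exon on a log axis, in MIA PaCa-2 (left) and PANC-1 (right), with an open circle for the PBS library and a filled circle for the CBC library, 1 library each. SCD moves furthest left among the highly expressed genes of MIA PaCa-2, from 199.9 to 53.8 CPM per kb, and STARD4 has 0 counts in both MIA PaCa-2 libraries.

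Of the 4 branches, fatty acid synthesis gave the largest absolute difference in summed CPM between PBS and CBC in each line. In percent, the sum of the efflux genes, which was far lower, differed more in MIA PaCa-2 (-76.2%) and less in PANC-1 (-14.9%). Summed over the 8 genes of fatty acid synthesis, the level was 2853 CPM in the MIA PaCa-2 control and 1294 CPM after CBC, a difference of -54.7%. In PANC-1 it was 1064 and 555 CPM, a difference of -47.8%. SCD and FASN made up 69.4% of the sum in the MIA PaCa-2 control and 61.1% after CBC, and 55.2% and 43.9% in PANC-1, so the sums mainly follow these 2 genes. The median log2 fold change of the 8 genes was -0.60 in MIA PaCa-2 and -0.79 in PANC-1.

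SCD encodes stearoyl-CoA desaturase, which puts the first double bond into saturated fatty acids. It lies on chromosome 10 of GRCh38 (100347233 to 100364826) and had 23312 counts with PBS and 6986 with CBC in MIA PaCa-2, and 4921 with PBS and 2210 with CBC in PANC-1. The control of each line was the higher library, and the treated MIA PaCa-2 library still exceeded the PANC-1 control. The log2 fold change was -1.89 in MIA PaCa-2 (interval -1.93 to -1.85, 3.71-fold lower) and -1.42 in PANC-1 (interval -1.49 to -1.35, 2.68-fold lower). Across both lines SCD fell by 1.65 on the log2 scale (SE 0.20, edgeR adjusted p = 0.00949). Per kb of exon, SCD was the highest of the 35 genes in the MIA PaCa-2 control at 199.9 CPM per kb and ranked 3 after CBC at 53.8 CPM per kb.

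FASN encodes fatty acid synthase, the enzyme that assembles palmitate. FASN (chromosome 17, 82078338 to 82098294) had 20696 and 12561 counts in the MIA PaCa-2 control and CBC libraries and 8433 and 4459 counts in those of PANC-1. The larger difference was in PANC-1, where FASN passed 2-fold with a log2 fold change of -1.18 (interval -1.24 to -1.13), against -0.87 (interval -0.91 to -0.84) in MIA PaCa-2. Across both lines it fell by 1.02 (SE 0.18, edgeR adjusted p = 0.0268).

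ACACA encodes acetyl-CoA carboxylase, which makes malonyl-CoA and thereby commits acetyl-CoA to fatty acids. ACACA (chromosome 17, 37084992 to 37406836) had 6733 and 2884 counts in MIA PaCa-2 and 2295 and 1492 counts in PANC-1, control first. Here the larger difference was in MIA PaCa-2, at -1.38 on the log2 scale (interval -1.44 to -1.31) against -0.89 (interval -0.98 to -0.79). ACACA fell by 1.13 across both lines (SE 0.21, edgeR adjusted p = 0.0307). ACLY, the citrate lyase that supplies cytosolic acetyl-CoA, had 10318 and 6770 counts in MIA PaCa-2 and 4284 and 3619 in PANC-1. Its log2 fold changes were -0.76 and -0.51, and its call turned on the tool, with an adjusted p of 0.107 in edgeR and 0.0221 in DESeq2 (0.0221 to 0.138 over the alternatives with the block).

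The promoters of SCD and ACACA are shown because both genes fell across the lines while their motifs differ. Each sequence holds the 250 bases before the RefSeq start site on GRCh38.p14, read 5′ to 3′ along the gene, with capitals for exact matches, on either strand, to the sterol regulatory element TCACNCCAC, the NF-Y box CCAAT and the Sp1 box GGGCGG, the 3 motifs that promoters of SREBP targets are known for. SCD lies at chr10:100346983-100347232 on the plus strand and ACACA at chr17:37406837-37407086 on the minus strand.
SCD: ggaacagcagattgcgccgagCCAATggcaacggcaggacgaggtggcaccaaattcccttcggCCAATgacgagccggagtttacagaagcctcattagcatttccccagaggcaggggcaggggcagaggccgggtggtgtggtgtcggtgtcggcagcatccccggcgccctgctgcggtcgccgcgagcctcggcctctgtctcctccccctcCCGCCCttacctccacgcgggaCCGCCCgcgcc
ACACA: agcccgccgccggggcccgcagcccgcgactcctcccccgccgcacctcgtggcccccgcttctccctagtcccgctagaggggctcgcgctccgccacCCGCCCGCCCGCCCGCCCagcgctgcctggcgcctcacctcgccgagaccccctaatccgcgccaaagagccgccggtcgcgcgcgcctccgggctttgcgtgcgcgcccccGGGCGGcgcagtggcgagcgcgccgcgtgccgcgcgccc
SCD held 2 NF-Y boxes and 2 Sp1 boxes. ACACA held 6 Sp1 boxes in its window of 300 bases, some of them overlapping, and no NF-Y box.

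FADS1 and FADS2 encode desaturases that act in turn on polyunsaturated fatty acids. FADS2 had 632 and 518 counts in MIA PaCa-2 and 1079 and 458 counts in PANC-1, and passed 2-fold in PANC-1 and not in MIA PaCa-2, at -1.50 (interval -1.66 to -1.34) against -0.44 (interval -0.61 to -0.27). Across both lines the value was -0.97 (SE 0.32, edgeR adjusted p = 0.141). FADS2 shares 49 bases of exon on the same strand with FEN1, a DNA repair nuclease that had 2214 and 557 counts in PANC-1, and the part of these shared bases in the counts was not tested. FADS1 had 1187 and 1613 counts in MIA PaCa-2 and 2749 and 2378 in PANC-1. Its log2 fold change was 0.29 (interval 0.18 to 0.40) in the first and -0.47 (interval -0.55 to -0.39) in the second, so the lines lay on opposite sides of 0. FADS1 and FADS2 also overlap on opposite strands over 490 bases.

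ACSS2, which makes acetyl-CoA from acetate, had the highest log2 fold change of the branch in PANC-1, 0.79 (interval 0.54 to 1.06), from 178 to 372 counts, and 0.10 (interval -0.07 to 0.27) in MIA PaCa-2, from 532 to 634 counts. ELOVL6, the elongase of palmitate, was low in MIA PaCa-2 at 39 and 38 counts, where its interval was wide, and had 257 and 191 counts in PANC-1, a log2 fold change of -0.69.

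**Figure D2:**
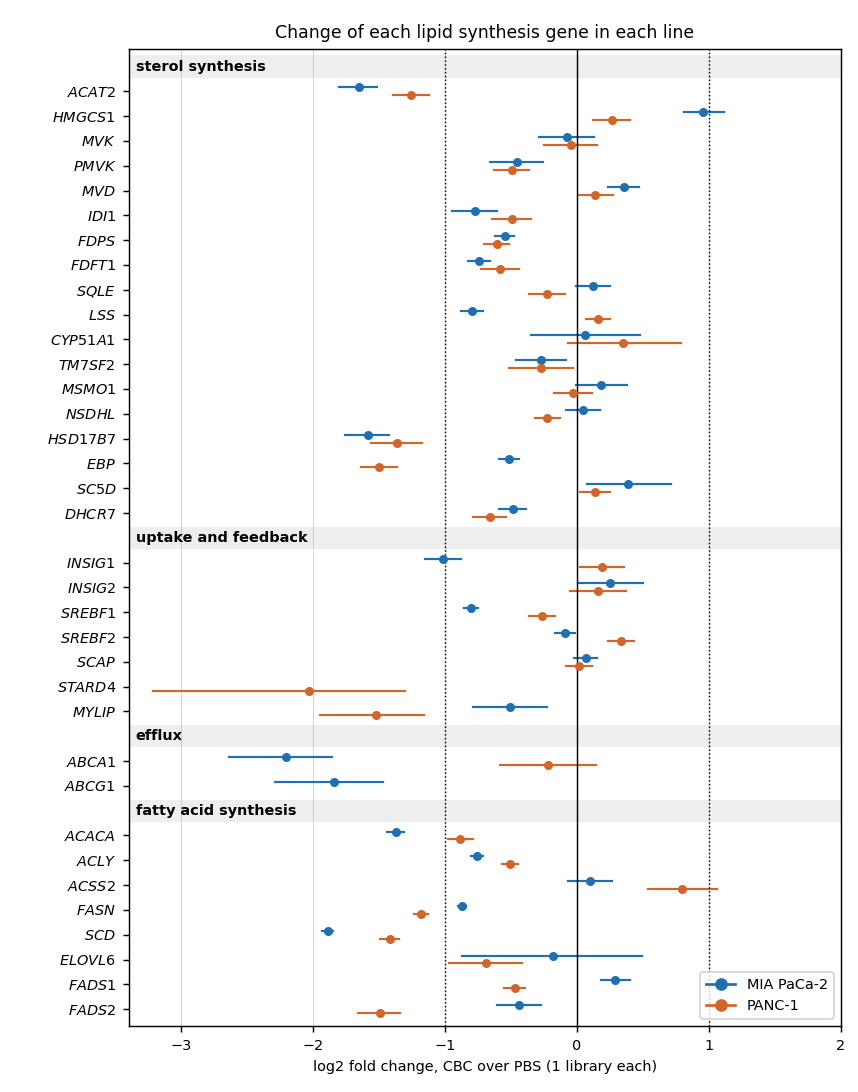
Log2 fold change of CBC over PBS for each gene by branch, in MIA PaCa-2 (blue) and PANC-1 (orange), 1 library per condition, with lines for the exact binomial 95% interval (counting error only) and dotted lines at a 2-fold change. No point lies past the dotted line on the right, and ABCA1, SCD, ACAT2 and HSD17B7 lie furthest left in MIA PaCa-2 together with ABCG1. STARD4 in MIA PaCa-2 and ABCG1 in PANC-1 were not tested and have no point.

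The 18 genes of sterol synthesis stood nearer to 0 as a group and lay on both sides of it. In MIA PaCa-2 their sum was 1055 CPM with PBS and 764 CPM with CBC (-27.5%), and in PANC-1 it was 794 and 614 CPM (-22.7%), with median log2 fold changes of -0.36 and -0.25. By counting error alone, 10 genes were lower and 3 higher in MIA PaCa-2, and 11 were lower and 4 higher in PANC-1. These counts by interval were not made over all genes. Past 2-fold were 2 of 18 genes in MIA PaCa-2 (11.1%, beside 8.97% of all genes) and 3 of 18 in PANC-1 (16.7%, beside 7.03%), all lower. Across the lines 2 of 18 were called lower (11.1%, beside 2.45% of all genes).

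ACAT2 encodes the cytosolic acetoacetyl-CoA thiolase, which starts the pathway by joining acetyl-CoA units. ACAT2 (chromosome 6, 159762045 to 159779112) had 1503 counts in the MIA PaCa-2 control and 530 after CBC, and 1332 and 668 counts in PANC-1. The controls of the lines lay close together and so did the treated libraries. The log2 fold changes were -1.65 (interval -1.80 to -1.51) and -1.26 (interval -1.40 to -1.13), and ACAT2 fell by 1.45 across both lines (SE 0.24, edgeR adjusted p = 0.0213). Over 454 bases, 17.2% of its exons, it overlaps TCP1 on the opposite strand. TCP1, a chaperonin subunit, had 9730 to 12295 counts, so reads could have been shared if strand was not used in counting, which the sources used here do not state.

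HSD17B7 encodes the ketosteroid reductase that acts in removing the methyl groups of lanosterol. HSD17B7 (chromosome 1, 162790702 to 162812823) had 1077 and 397 counts in MIA PaCa-2 and 686 and 319 counts in PANC-1, control first. Both treated libraries were below both controls. The log2 fold changes were -1.59 (interval -1.76 to -1.43) and -1.36 (interval -1.57 to -1.18), and the gene fell by 1.48 across both lines (SE 0.26, edgeR adjusted p = 0.0243). Its pseudogene HSD17B7P2 had 3 to 34 counts. EBP, the sterol isomerase of the late pathway, passed 2-fold in PANC-1, where it went from 1484 to 629 counts (-1.50, interval -1.64 to -1.37). In MIA PaCa-2 EBP went from 3416 to 2657 counts (-0.52, interval -0.59 to -0.44), and across both lines the value was -1.0 (SE 0.28, edgeR adjusted p = 0.0946). In GENCODE release 44, a gene whose identifier the count table does not list shares 36.4% of the exons of EBP on the same strand.

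Among the other steps, 6 genes lay below 0 by less than 2-fold in both lines with every counting interval below 0. IDI1, which isomerizes isopentenyl diphosphate, stood at -0.77 in MIA PaCa-2 and -0.49 in PANC-1. For FDPS and FDFT1, which make farnesyl diphosphate and squalene, the log2 fold changes were -0.55 and -0.61, and -0.74 and -0.58. DHCR7, the reductase of the last step, had -0.49 and -0.66, and PMVK, a mevalonate pathway kinase, -0.45 and -0.50. Over the 4 libraries these genes had 457 to 791 counts (IDI1), 1724 to 3617 (FDPS), 734 to 2982 (FDFT1), 908 to 1713 (DHCR7) and 376 to 1026 (PMVK). TM7SF2, a sterol reductase with 287 to 480 counts, stood at -0.27 in both lines. None of these 6 genes was called across the lines (adjusted p of 0.130 to 0.649 in edgeR).

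HMGCS1 encodes the cytosolic HMG-CoA synthase, the step before mevalonate, and had the highest log2 fold change of all 35 genes in MIA PaCa-2. It went from 515 to 1115 counts there, a log2 fold change of 0.96 (interval 0.81 to 1.11), just short of 2-fold at 1.95-fold. With library totals in place of TMM the log2 fold change was 1.02, past 2-fold. In PANC-1 it went from 716 to 1032 counts (0.26, interval 0.12 to 0.40), and across both lines the value was 0.62 (SE 0.27, edgeR adjusted p = 0.250). So the first 2 enzymes of the pathway, ACAT2 and HMGCS1, lay on opposite sides of 0 in both lines. MVD, which decarboxylates mevalonate diphosphate, and SC5D, a sterol desaturase, were also above 0 in both, MVD at 0.35 and 0.14 with 832 to 1494 counts and SC5D at 0.39 and 0.13 with 141 to 1444 counts. Their edgeR adjusted p-values across the lines were 0.582 and 0.618.

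LSS, the synthase that closes squalene epoxide into lanosterol, had 3079 and 1969 counts in MIA PaCa-2 (-0.80, interval -0.88 to -0.72) and 1698 and 2282 counts in PANC-1 (0.16, interval 0.07 to 0.25). SQLE, which makes the epoxide and is a rate-setting step, had log2 fold changes of 0.12 and -0.23, from 924 to 1116 and from 858 to 881 counts. The values of the kinase MVK, the demethylase CYP51A1, the methyl sterol oxidase MSMO1 and the sterol dehydrogenase NSDHL ran from -0.23 to 0.35. MVK had 372 to 432 counts, MSMO1 400 to 883 and NSDHL 913 to 1782. CYP51A1 had 78 to 120 counts in the 4 libraries, and 68.2% of its exons are shared on the same strand with a gene whose identifier the count table does not list.

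The promoters of HSD17B7 and HMGCS1 are shown as those of genes on opposite sides of 0 in the same pathway, with capitals as above. HSD17B7 lies at chr1:162790452-162790701 on the plus strand and HMGCS1 at chr5:43313413-43313662 on the minus strand.
HSD17B7: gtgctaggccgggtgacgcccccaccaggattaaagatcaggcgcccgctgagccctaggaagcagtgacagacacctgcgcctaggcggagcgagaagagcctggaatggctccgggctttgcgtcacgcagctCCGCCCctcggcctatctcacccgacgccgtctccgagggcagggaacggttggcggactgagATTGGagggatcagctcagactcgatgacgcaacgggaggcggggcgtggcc
HMGCS1: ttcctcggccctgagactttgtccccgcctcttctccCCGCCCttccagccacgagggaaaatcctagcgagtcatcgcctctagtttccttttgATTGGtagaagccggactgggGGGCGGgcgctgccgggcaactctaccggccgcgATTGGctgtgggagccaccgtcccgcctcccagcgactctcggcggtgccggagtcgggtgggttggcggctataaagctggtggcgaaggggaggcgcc
Both windows held 2 NF-Y boxes, 1 of those of HSD17B7 lying past the start site, and at least 1 Sp1 box.

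**Figure D3:**
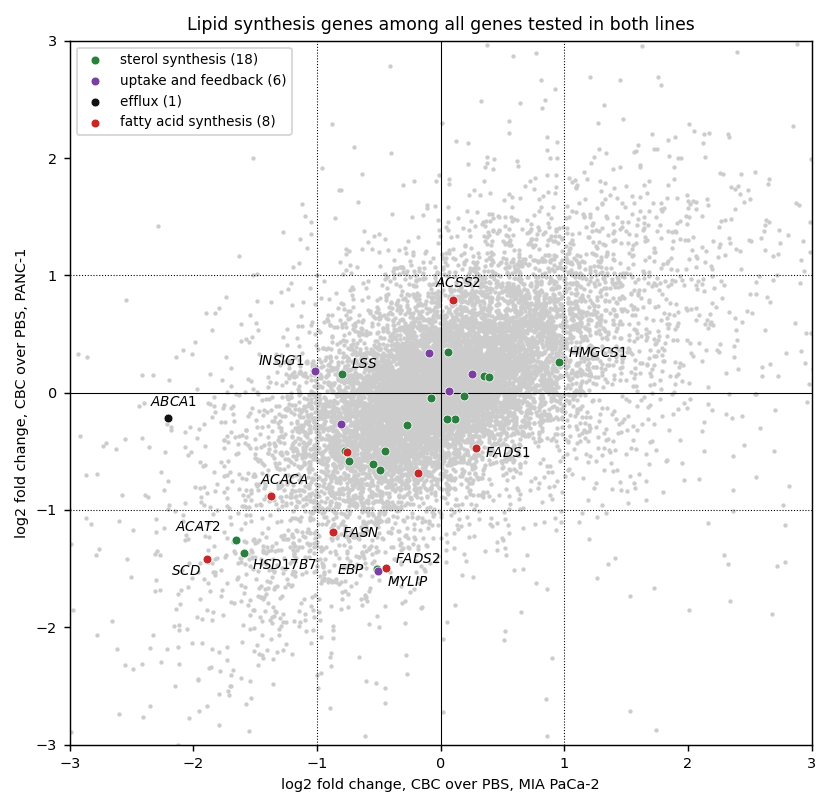
Log2 fold change in MIA PaCa-2 (horizontal) against PANC-1 (vertical) for the 33 genes tested in both lines, coloured by branch, over all 12502 genes tested in both lines (grey), with dotted lines at a 2-fold change. Genes beyond the axes are not drawn. SCD, ACAT2 and HSD17B7 lie in the lower left corner past both dotted lines, while INSIG1 and LSS lie left of 0 in MIA PaCa-2 and above 0 in PANC-1.

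The regulators are given line by line, since no difference between the lines could be tested. SREBF1 encodes SREBP1, the form that mainly drives fatty acid genes. It had 7241 counts in the MIA PaCa-2 control and 4605 after CBC, a log2 fold change of -0.81 (interval -0.86 to -0.75), and 1668 and 1667 counts in PANC-1, which is -0.27 (interval -0.36 to -0.17) once library size is taken into account. Across both lines the value was -0.53 (SE 0.21, edgeR adjusted p = 0.207). The MIA PaCa-2 control held 4.44 times the CPM of the PANC-1 control, with 1 library each and no test. Among the 8 genes of fatty acid synthesis that ratio ran from 0.155 for ELOVL6 to 4.84 for SCD. It was 2.51 for FASN, but 0.441 for FADS1 and 0.599 for FADS2. ACACA, ACLY and ACSS2 were also higher in the MIA PaCa-2 control. A relation of these ratios to SREBF1 was not tested.

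SREBF2 encodes SREBP2, the form that mainly drives sterol genes. Its counts went from 2530 to 2641 in MIA PaCa-2 and from 1429 to 2166 in PANC-1, log2 fold changes of -0.09 (interval -0.17 to -0.01) and 0.33 (interval 0.24 to 0.43). SCAP, the escort of the SREBPs, went from 2077 to 2416 and from 1530 to 1860 counts, and its values of 0.06 and 0.02 had intervals that held 0. Neither gene passed the test across the lines, with edgeR adjusted p-values of 0.787 for SREBF2 and 0.927 for SCAP.

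INSIG1, the sterol-responsive anchor of SCAP and itself an SREBP target, was the gene of this branch past 2-fold in MIA PaCa-2. It went from 1267 to 697 counts there, a log2 fold change of -1.01 (interval -1.15 to -0.88), and from 498 to 682 counts in PANC-1, at 0.19 (interval 0.02 to 0.36). The interval in MIA PaCa-2 holds -1, and with library totals or the deposited CPM it did not pass 2-fold. Across both lines INSIG1 stood at -0.41 (SE 0.32, edgeR adjusted p = 0.519). INSIG2, the form less tied to sterol level, went from 241 to 319 and from 329 to 441 counts, with values of 0.25 (interval 0.01 to 0.50) and 0.16 (interval -0.05 to 0.37). INSIG1 was the lower of this pair in MIA PaCa-2 relative to control, and in PANC-1 their intervals overlapped.

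The promoter of SREBF2 is shown because it held the single sterol regulatory element found, and that of INSIG1 because its change lay on opposite sides of 0 in the lines. SREBF2 lies at chr22:41832855-41833104 and INSIG1 at chr7:155297628-155297877, both on the plus strand, with capitals as above.
SREBF2: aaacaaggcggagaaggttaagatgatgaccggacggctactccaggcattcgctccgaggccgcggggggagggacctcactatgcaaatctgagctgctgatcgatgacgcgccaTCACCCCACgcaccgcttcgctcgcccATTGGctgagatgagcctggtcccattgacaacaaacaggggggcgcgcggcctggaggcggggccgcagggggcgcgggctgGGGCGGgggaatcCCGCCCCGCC
INSIG1: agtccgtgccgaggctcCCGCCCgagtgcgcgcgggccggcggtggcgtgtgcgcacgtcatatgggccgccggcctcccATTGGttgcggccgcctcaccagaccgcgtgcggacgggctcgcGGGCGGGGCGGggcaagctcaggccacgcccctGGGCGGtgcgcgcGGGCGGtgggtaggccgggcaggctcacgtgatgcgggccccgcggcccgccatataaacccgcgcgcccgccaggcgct
In SREBF2 the element ran from base -133 to base -125 before the start site, followed by an NF-Y box. INSIG1 held 1 NF-Y box and 6 Sp1 boxes in its window, some of them overlapping.

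MYLIP encodes a ubiquitin ligase that is induced through LXR and sends lipoprotein receptors to degradation. It had 242 and 189 counts in MIA PaCa-2 (-0.51, interval -0.79 to -0.23) and 190 and 78 counts in PANC-1 (-1.52, interval -1.95 to -1.16). Both treated libraries were below both controls, with an edgeR adjusted p of 0.217 across the lines. STARD4, a carrier of cholesterol between membranes, had 0 counts in both MIA PaCa-2 libraries, which allows a level of up to 0.135 CPM in the control and 0.121 CPM after CBC. In PANC-1 STARD4 went from 50 to 13 counts (-2.03, interval -3.21 to -1.31), and the test over all 4 libraries gave an edgeR adjusted p of 0.232. That test rests on PANC-1 for this gene. The STARD4 level of the PANC-1 control was 16.3 times the limit for the MIA PaCa-2 control, with 3 counts per library as the limit for 0. That ratio leaves out the counting error of the 50 counts in PANC-1.

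Both efflux genes were lower by more than 2-fold in MIA PaCa-2. ABCA1, which loads cholesterol onto lipid-poor apolipoproteins, had 293 counts in the MIA PaCa-2 control and 69 after CBC, and 129 and 133 counts in PANC-1. Its log2 fold change was -2.21 in MIA PaCa-2 (interval -2.64 to -1.86, 4.72-fold lower), the lowest of the 35 genes in either line. In PANC-1 it was -0.22 (interval -0.58 to 0.14). ABCG1, the transporter that exports sterols to mature lipoproteins, had 221 and 67 counts in MIA PaCa-2 (-1.84, interval -2.29 to -1.47) and 3 and 2 counts in PANC-1, which is at the limit of detection, so no fold change is given there. Across both lines the values were -1.22 (SE 0.54, edgeR adjusted p = 0.247) for ABCA1 and -1.66 (SE 0.58, edgeR adjusted p = 0.151) for ABCG1. The value for ABCG1 rests mainly on MIA PaCa-2. The sum of both genes was 23.1 CPM with PBS and 5.50 CPM with CBC in MIA PaCa-2, and 5.81 and 4.94 CPM in PANC-1.

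The difference between the lines in the efflux genes and regulators was not tested, since 4 libraries leave no residual degree of freedom for it.

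**Figure D4:**
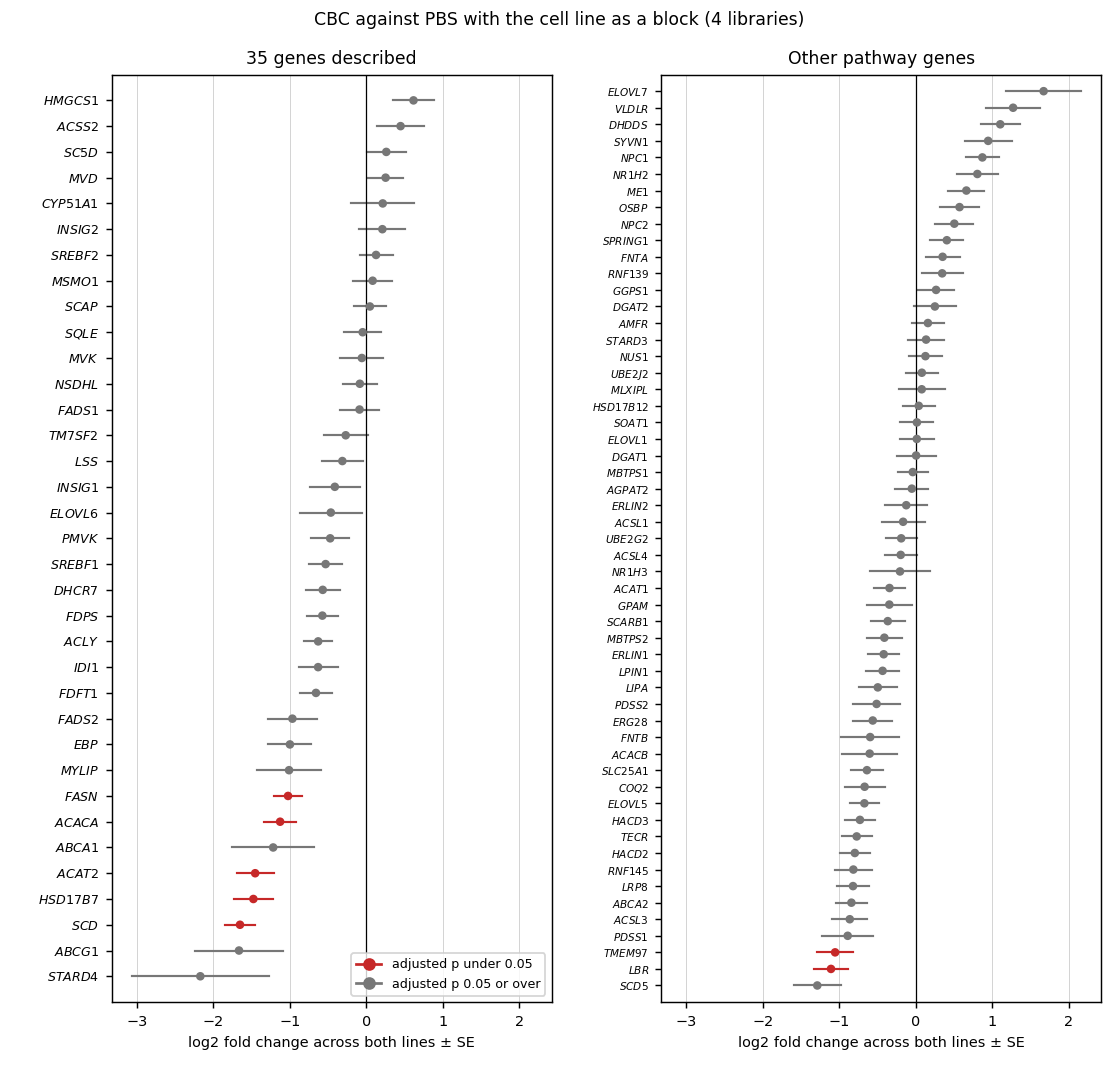
Log2 fold change of CBC over PBS across both lines, with the cell line as a block (edgeR, 4 libraries), for the 35 genes (left) and for the other pathway genes (right, ACSL5 left out because it had at most 17 counts), with bars for ± 1 SE and red for an adjusted p under 0.05. SCD, HSD17B7, ACAT2, ACACA and FASN are red on the left and LBR and TMEM97 on the right, all of them below 0.

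For the rest of the pathway, 57 further genes in 4 lists were examined. Of 55 tested in each line, MIA PaCa-2 had 5 more than 2-fold higher and 6 lower, and PANC-1 had 1 higher and 2 lower. The shares lower, 10.9% and 3.64%, stand beside the 8.97% and 7.03% of all genes. Across both lines edgeR called 2 of 56, both lower, and DESeq2 called 13, beside 771 and 1296 of all 16381 genes. The 12 other genes listed for sterol and isoprenoid synthesis, not all of them enzymes, had medians of -0.64 on the log2 scale for MIA PaCa-2 and -0.34 for PANC-1. For the 22 other genes of fatty acid and glycerolipid synthesis the medians were -0.63 and -0.12. The medians were nearer to 0 for the 11 genes that process SREBPs or degrade sterol enzymes (-0.10 and 0.03) and for the 12 genes of LXR and sterol transport (-0.10 and 0.20).

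Both genes called in edgeR come from the list for sterol and isoprenoid synthesis, so their link to sterols follows from how they were listed. They are 3.57% of the 56 genes tested, beside 2.45% of all genes called lower. LBR, the lamin B receptor, which is also a sterol reductase, fell by 1.11 (SE 0.22, edgeR adjusted p = 0.0364), from 2327 to 995 and from 3365 to 2233 counts. TMEM97, a sterol-binding membrane protein, fell by 1.06 (SE 0.23, edgeR adjusted p = 0.0472), from 2410 to 1513 and from 1492 to 726 counts. With DESeq2 size factors in edgeR these lists held 1 call, and both calls were lost with a filter of 1 CPM in 2 libraries. Of the 55 genes of these lists tested in both lines, 1 was past 2-fold higher in both, beside 416 of all 12502 genes. The share in the lists was thus below that of all genes. This gene was VLDLR, a lipoprotein receptor. It had 72 counts with PBS and 230 with CBC in MIA PaCa-2 (2.87-fold, log2 interval 1.13 to 1.92). The PANC-1 libraries held 204 and 499 (2.04-fold, log2 interval 0.79 to 1.27). Across both lines VLDLR had an edgeR adjusted p of 0.0882.

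Promoter windows of 300 bases, from 250 before to 50 after the RefSeq start site, were found for 30 of the 35 genes. ACAT2, FDFT1, SQLE, ABCG1 and FASN had no entry. The sterol regulatory element was found in 1 of 30 windows (3.33%), that of SREBF2, beside 1.15% of all 27305 windows. The NF-Y box was in 19 (63.3%, beside 35.7% of all windows), of which 12 belonged to the 15 sterol synthesis genes with a window and 3 to the 7 fatty acid genes. The Sp1 box was in 28 (93.3%, beside 44.6%). The windows of all genes were not limited to genes expressed in these cells, so these shares do not compare the 35 genes with other expressed genes. MVK and NSDHL held the most NF-Y boxes, 5 each, and FADS2 held no match to any of the 3 motifs. These are matches of letters only, with no measure of binding.

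**Figure D5:**
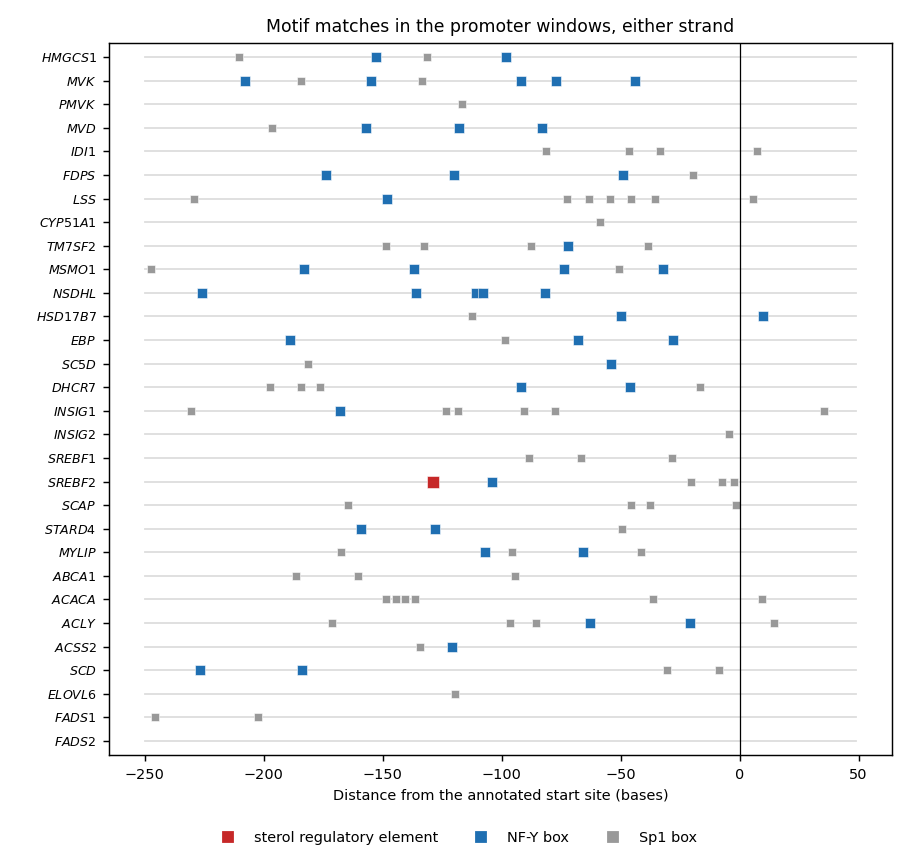
Position of each exact motif match, on either strand, in the promoter windows of 30 genes, in bases from the annotated start site at 0, with red for the sterol regulatory element, blue for the NF-Y box and grey for the Sp1 box. The single red mark lies upstream of SREBF2 at -133 to -125, and the line of FADS2 is empty.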

How the data were processed

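Poly(A)-selected mRNA was prepared with a directional kit and sequenced in 4 libraries, 1 per line and treatment. Read trimming by the authors used cutadapt 2.7, alignment to GRCh38 used STAR, and counting per gene of Ensembl release 89 used HTSeq. The STAR version and the strand setting of the counting are not given in the sources used here. The deposited table holds raw counts and a normalized signal, a CPM on TMM-scaled library sizes, which equals that computed from the counts (largest relative difference 6.84e-09), so the counts were used. Of 58233 gene IDs, 57392 matched a symbol. Positions and exon lengths came from GENCODE release 44 (GRCh38).

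Within each line, edgeR 4.0.16 (R 4.3.3) gave log2 fold changes with a prior count of 2 after TMM scaling of the 4 libraries together. Genes past 1 or -1 were counted, provided 1 of the 2 libraries reached 1 CPM. Intervals are exact binomial (Clopper-Pearson, 95%, scipy 1.17.1). With 1 library per condition there is no test within a line, and the median member's interval spans about 0.14 on either side on the log2 scale. Across lines, the quasi-likelihood test of edgeR was run on 16381 genes that passed its default filter, with TMM on those genes, cell line as a blocking factor and calls at an adjusted p under 0.05. The SE was derived from the F statistic. Libraries are paired because they share a cell line, and their deviations from the treatment means correlated at 0.923 over genes. The common biological variation was 23.0% (coefficient of variation). The procedure was tested on simulated data. These p-values set the mean CBC effect against its difference between the 2 lines, pooled with a spread estimated from all genes. The pooling weighs 6.77 prior degrees of freedom (median) beside 1 residual degree of freedom. Spread between cultures of a line is not measured.

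The 35 genes, the 4 lists of other pathway genes and the motifs were chosen with earlier results of these data known, and 1 gene of these lists is not reported here. All 35 genes are named. Counts in all 4 libraries are given for those past 2-fold, called across the lines or regulating the pathway, and genes of the other lists are named where past 2-fold in 1 direction in both lines or called across them. Alternatives changed the prior count, the scaling (size factors of DESeq2 1.42.0, TMM within each line, or library totals), the values (deposited CPM with a pseudocount of 1), the filter, the block and the tool.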

Additional observations from a re-analysis of the deposited data

Results flagged for a closer look

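In 4 of the 35 genes the lines lay on opposite sides of 0 with both counting intervals off 0. This count was not made over all genes, so the share expected among them is not known. The directions stayed opposite under all 5 alternatives of scaling, prior count and values, for which no intervals were computed. The difference itself was not tested, since 1 library per condition leaves no spread for it, and the lines also differed in dose. The larger share of apoptotic cells that the paper reports for treated MIA PaCa-2 was not taken into account. LSS stood at -0.80 on the log2 scale for MIA PaCa-2 and at 0.16 for PANC-1, a difference (MIA PaCa-2 minus PANC-1) of -0.96. INSIG1 had -1.01 and 0.19, a difference of -1.20. SREBF2 had -0.09 and 0.33, a difference of -0.43. FADS1 had 0.29 and -0.47, a difference of 0.76.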

How the results depend on the processing

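The PANC-1 median of uptake and feedback, which is the value of SCAP, lay at 0.02 and changed sign with TMM within each line (-0.01) and DESeq2 size factors (-0.00061). No other median of a branch did. Counts were taken as stable within 1.5 times the main count, and medians within about 0.14 on the log2 scale. That margin is the reach, on either side, of the median member's counting interval, so it covers counting error only. Of these counts and medians, 70 alternative values stayed within the limits and 3 moved. Without the replicate block edgeR called 0 of the 35 genes across the lines. Without a filter on low counts it called 8 (ACLY, EBP and FADS2 added to the 5). The median log2 fold change of the efflux genes in MIA PaCa-2 was -1.73 from the deposited CPM against -2.03. DESeq2 called 6, and DESeq2 size factors, library totals and a filter of 1 CPM in 2 libraries each left the same 5. TMM taken from all genes, an alternative chosen after seeing the data, also left them. With the block, the highest adjusted p over these alternatives was 0.0489 for ACACA, 0.0451 for FASN, 0.0410 for HSD17B7, 0.0382 for ACAT2 and 0.0252 for SCD. Calls over all genes moved more, from 771 to 461 with 1 CPM in 2 libraries, 1296 in DESeq2, 2063 of 28834 without a filter and 0 without the block.

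Past 2-fold in MIA PaCa-2, INSIG1 was lost with library totals, with the deposited CPM and where the whole interval had to pass, leaving 6 lower genes, and HMGCS1 was past 2-fold higher with library totals. In PANC-1 STARD4 was lost with a filter of 5 CPM, leaving 7. Without a filter, 3249 higher and 2567 lower genes were past 2-fold in MIA PaCa-2 and 2537 and 2310 in PANC-1. TMM within each line turned the balance over all genes in PANC-1 to 1027 higher and 1043 lower. The median of all genes stayed between -0.03 and 0.09 on the log2 scale under every scaling. No value past 2-fold or called across the lines changed sign. Values near 0 did so for SCAP and, with library totals, for MVK and MSMO1 in PANC-1 and for MVK and SQLE across the lines. Leaving out either line leaves the values of the other line without a test.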
